A study of Mus musculus with 6 samples.

Results

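Jun, Fosl2, Crem and Atf3 encode stimulus-induced transcription factors with a basic leucine zipper, and their RNA was measured in the adrenal gland of mice with and without PACAP. PACAP, encoded by Adcyap1, is a neuropeptide that the splanchnic nerve releases onto the chromaffin cells of the adrenal medulla. All clones listed under these 4 genes in the probe annotation, with symbols updated to current ones, were taken. They were 8 of the 36013 clones on the arrays, of which 22364 had a single listed gene: 1 clone of Jun, 4 of Fosl2, 2 of Crem and 1 of Atf3. Each of 6 spotted cDNA arrays compared whole adrenal RNA of a wild-type sample (129XC57BL6 F2, PACAP +/+, labelled with Cy5, red) with that of a knockout sample (129XC57BL6 F2, PACAP -/-, labelled with Cy3, green). Treatment, age, and whether the 6 repeats were separate animals or pools are not given in the sources used here, so the p-values measure the spread between arrays, which may be technical. The dyes were never exchanged, so a clone's dye effect and its genotype effect cannot be told apart. The comparison addresses which genes of the adrenal gland require PACAP.

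Leucine zipper factors bind DNA as pairs. Jun pairs with a Fos-family protein such as Fosl2 (also called Fra-2) to form AP-1, which binds the sequence TGACTCA, whereas ATF and CREB proteins prefer the cAMP response element TGACGTCA. PACAP receptors raise cAMP, which activates CREB through protein kinase A. Crem encodes both activators and repressors at this element, among them the inducible repressor ICER, and Atf3 is a stress-induced member of the ATF family.

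The RefSeq promoter table (GRCm38.p6) held Jun, Fosl2 and Atf3, 3 of the 4 genes. A stretch of 60 bases before the annotated start of each is shown because these are regions where factors of this family could meet their own genes. Bases are given 5′ to 3′ on the gene's strand, with matches to any of 4 searched motifs in capitals: TGACGTCA, TGACTCA, TGACATCA and TTACGTCA, each on both strands of the 250 bases before the start.
Jun, chr4:95052234-95052293, minus strand: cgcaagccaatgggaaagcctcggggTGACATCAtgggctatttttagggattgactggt
Atf3, chr1:191183334-191183393, minus strand: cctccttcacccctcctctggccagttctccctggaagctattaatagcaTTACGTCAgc
Fosl2, chr5:32136412-32136471, plus strand: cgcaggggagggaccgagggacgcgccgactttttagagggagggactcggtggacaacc
The Jun window held TGACATCA from base -45 to -38, counted from the base before the start as -1. This motif occurred in 2.93% of 32851 windows of the same length. The Atf3 window held TTACGTCA from base -10 to -3, a motif of 0.447% of the windows. Its last 5 bases also matched the core cAMP response element TGACG on the opposite strand, from base -7 to -3, which 17.8% of windows held. None of the 4 longer motifs was in the Fosl2 window, and TGACGTCA and TGACTCA, held by 1.55% and 4.46% of all windows, were in none of the 3. These are matches of letters only.

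The arrays differed in their wild-type channel. The quality filter and the removal of 1048 empty and control spots left between 26026 and 31947 of 37632 spots per array. Signals are background-subtracted, so a multiple of local background under 1 is a net signal smaller than that background. The median red signal was 1.37 and 1.15 times its local background on arrays 2 and 4, and between 1.65 and 4.79 times on the other arrays, while the median green signal lay between 5.39 and 7.07 times background on all 6. Adcyap1, the targeted gene, was not lower in the channel labelled as knockout where it was measured. Its 1 clone met the quality minimum on arrays 3 and 5 only, with a red wild-type signal of 86.5 and 94.2 (0.87 and 0.96 times background), a green knockout signal of 222.9 and 227.0, and normalized log2 ratios of -0.07 and -0.04. Which stretch of the gene was deleted, and whether the clone lies in it, are not given in the sources used here, so the genotypes rest on the labels. The tissue label was borne out by Star, Cyp11a1 and Hsd3b1 of the steroid-producing cortex and Th, Chga and Chgb of the medulla, each above background in both channels of every array. All ratios below are log2 of knockout over wild type after print-tip loess, in which each of the 48 print blocks has its own curve. With 1 curve per array (global loess), print blocks held 46.9% of the variance of the ratios of spots measured on at least 4 arrays, with block means from -0.57 to 0.56, against 0.0635% with print-tip loess.

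Jun, Fosl2 by 2 of its 4 clones, and Crem by its 1 tested clone were higher in the PACAP -/- adrenal, by 1.39-fold to 1.63-fold. The remaining 2 Fosl2 clones and the Atf3 clone lay near a ratio of 0. Of the 8 clones, 7 had values on at least 4 arrays and were tested. Of these, 4 were higher and 0 lower at an adjusted p under 0.05 (limma, 28708 clones), where 11.4% of all clones tested passed, 6.74% as higher and 4.62% as lower. At an unadjusted p under 0.05 the count of lower clones was also 0.

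**Figure D1:**
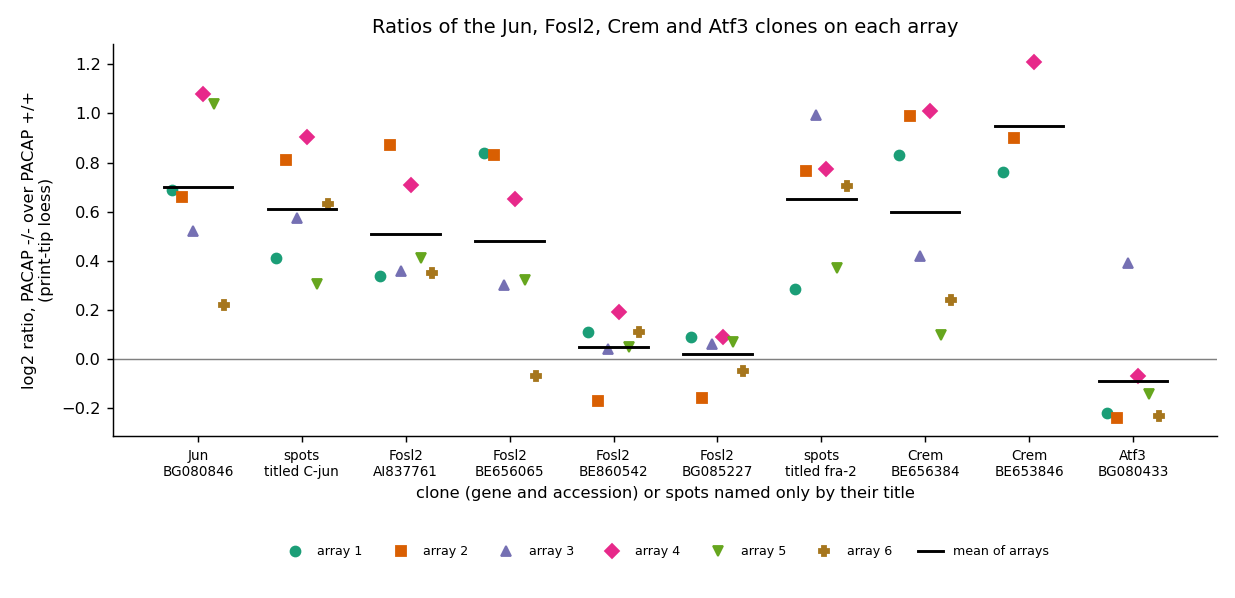
Log2 ratio of PACAP -/- over PACAP +/+ on each array (points) with the mean over arrays (bar), for the 8 clones and for the spots titled C-jun and fra-2. The Jun clone, Fosl2 AI837761 and both Crem clones are above 0 on every array measured, Fosl2 BE656065 on 5 of 6, and the other 2 Fosl2 clones and Atf3 scatter about 0.

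Jun encodes the AP-1 subunit that can pair with itself or with Fos proteins. Its clone (BG080846, titled Jun oncogene) had a green knockout signal of 1045, 1112, 1287, 1141, 1076 and 1606 on arrays 1 to 6. Its red wild-type signal was 583.5, 235.5, 332.6, 152.9, 173.7 and 382.1, between 1.57 and 6.96 times local background. The knockout channel varied less between arrays than the wild-type channel, which was weakest on arrays 4 and 5. After normalization the log2 ratio was 0.69, 0.66, 0.52, 1.08, 1.04 and 0.22, so that every array was above 0, with array 6 the lowest and arrays 4 and 5 the highest. The fitted ratio was 0.70 ± 0.12 (SE, n = 6), a 1.63-fold higher level in the knockout (95% interval 1.36 to 1.94; limma adjusted p = 0.0242). The exact two-sided sign-flip test over the arrays gave p = 0.03125, the smallest that 6 arrays allow. The ratio lay between 0.63 and 0.80 when each array was left out in turn. Leaving out array 2, 3, 4 or 6 ended the call, with adjusted p-values of 0.0674, 0.0743, 0.0645 and 0.0503.

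The pair of spots titled C-jun in the scanner files have no gene in the probe annotation. RefSeq lists c-jun as a synonym of Jun. They lie in blocks 2 and 6, and their ratio averaged over both spots was 0.41, 0.81, 0.58, 0.90, 0.31 and 0.63 on arrays 1 to 6. All 6 arrays were above 0. The fitted ratio was 0.61 ± 0.09, or 1.52-fold (adjusted p = 0.0227), and it was below that of the Jun clone on 3 arrays and above it on the other 3 (mean difference -0.10 ± 0.40, SD; adjusted exact sign-flip p = 0.716 over 12 pairs of probes). With global loess the titled spots had a ratio of 0.19 (adjusted p = 0.286), and the Jun clone 0.76 (adjusted p = 0.0036). Their mean difference was then -0.58 (adjusted exact sign-flip p = 0.0469). Blocks 2 and 6 had global loess means of -0.487 and -0.365, against 0.039 for block 25 of the Jun clone.

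Fosl2 encodes Fra-2, a Fos-family partner of Jun, and with print-tip loess its 4 clones fell into a higher and a lower pair. The clone titled fos-like antigen 2 (AI837761) had ratios of 0.34, 0.87, 0.36, 0.71, 0.41 and 0.35 on arrays 1 to 6. Arrays 2 and 4 stood above the other 4, which were close together. Its fitted ratio was 0.51 ± 0.09 (SE, n = 6), a 1.42-fold higher level (95% interval 1.23 to 1.64; adjusted p = 0.0249; exact sign-flip p = 0.03125). Its red signal was between 1.10 and 4.93 times background, and on arrays 2 and 4 it was 134.6 and 122.1, against 153.2 to 385.8 on the others. Leaving out array 2, 3, 4 or 6 gave adjusted p-values of 0.0714, 0.0743, 0.0689 and 0.0503.

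The second Fosl2 clone that was higher (BE656065, titled ESTs) had ratios of 0.84, 0.83, 0.30, 0.65, 0.32 and -0.07. Arrays 1, 2 and 4 were high, and array 6 fell just below 0. The fitted ratio was 0.48 ± 0.12, or 1.39-fold (95% interval 1.15 to 1.68; adjusted p = 0.0396), and the exact sign-flip test over its 6 arrays gave p = 0.0625. The call was lost whichever array was left out, at adjusted p-values of 0.0503 to 0.109.

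The other pair of Fosl2 clones did not pass the threshold. Clone BG085227, titled ESTs and in the same UniGene cluster as BE656065, had ratios of 0.09, -0.16, 0.06, 0.09, 0.07 and -0.05. Its red signal ran from 705.9 to 8564, between 3.27 and 45.8 times background. Its fitted ratio was 0.02 ± 0.07, and the 95% interval, -0.15 to 0.18, ends below the fitted ratio of either higher clone. Clone BE860542, which the scanner files title B-cell CLL/lymphoma 7C, had ratios of 0.11, -0.17, 0.04, 0.19, 0.05 and 0.11. Its fitted ratio was 0.05 ± 0.08 (95% interval -0.12 to 0.22; adjusted p = 0.645). AI837761 and BE860542 are in UniGene clusters that differ from each other and from that of BG085227 and BE656065. Thus only 1 of the 4 clones listed as Fosl2 carries that gene's name in its scanner title, and which of the others report Fosl2 RNA was not tested.

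Within an array, the clones of a higher and a lower pair differed by about as much as the higher clones differed from 0. AI837761 exceeded BG085227 on 6 of 6 arrays, by 0.49 ± 0.30 (SD), and BE860542 on 6 of 6, by 0.45 ± 0.31. BE656065 exceeded BG085227 and BE860542 on 5 of 6 arrays each, by 0.46 ± 0.38 and 0.42 ± 0.41. None of these 4 differences passed adjustment over the 12 pairs, where the lowest adjusted exact sign-flip p, 0.0938, belonged to differences at the smallest p that 6 arrays allow. The 2 higher clones differed from each other by 0.03 ± 0.30 and the 2 lower clones by 0.04 ± 0.08. With global loess, the differences between AI837761 or BE656065 and each lower clone all had an adjusted exact sign-flip p of 0.0469. The 2 lower clones were then apart as well, with BG085227 minus BE860542 at -0.58 (adjusted exact sign-flip p = 0.0833). For the 2 higher clones, AI837761 minus BE656065 was -0.22 (adjusted exact sign-flip p = 0.1875). The print blocks of AI837761, BE656065, BG085227 and BE860542 then had mean ratios of -0.096, 0.177, -0.571 and 0.07. The part of block position in these differences was not tested.

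The spots titled fra-2, a RefSeq synonym of Fosl2 with no gene in the annotation, gave ratios of 0.29, 0.76, 0.99, 0.78, 0.37 and 0.70. All arrays were above 0, with arrays 1 and 5 the lowest. The fitted ratio was 0.65 ± 0.10, or 1.57-fold (adjusted p = 0.0231). It exceeded BG085227 by 0.63 ± 0.32 and BE860542 by 0.59 ± 0.31, on 6 of 6 arrays each, and AI837761 and BE656065 by 0.14 ± 0.29 and 0.17 ± 0.50. The former differences had an adjusted exact sign-flip p of 0.0938 and the latter of 0.583. With global loess the differences from BG085227 (1.34), BE860542 (0.76) and AI837761 (0.30) had an adjusted p of 0.0469. That from BE656065 (0.07) had 0.6875. The plate of titled spots as a whole leaned to the knockout: of its 44 titles tested, 15 were higher and 0 lower (1 at an unadjusted p under 0.05), with a median ratio of 0.22 against 0.00 over all clones.

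**Figure D2:**
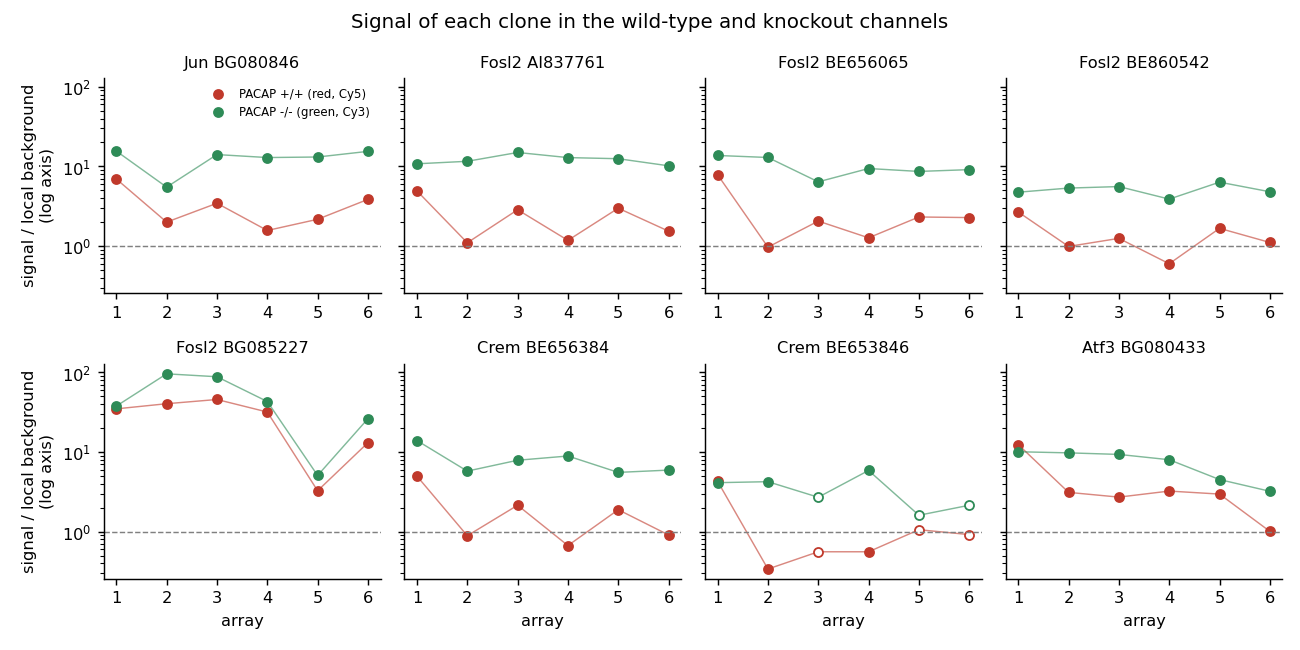
Signal over local background (log axis) of each clone in the wild-type channel (red) and the knockout channel (green) on arrays 1 to 6. Open points did not pass the quality filter, and the dashed line marks a background-subtracted signal equal to the local background. The red signal as a multiple of background is lowest on arrays 2 and 4 for Jun, Fosl2 AI837761 and Crem BE656384. That of Fosl2 BG085227 stays at 3.27 times background or more.

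Crem encodes the cAMP response element modulator. Its clone BE656384 had ratios of 0.83, 0.99, 0.42, 1.01, 0.10 and 0.24 on arrays 1 to 6, all above 0, with arrays 1, 2 and 4 high and array 5 the lowest. The fitted ratio was 0.60 ± 0.13 (SE, n = 6), a 1.51-fold higher level in the knockout (95% interval 1.23 to 1.86; adjusted p = 0.0313; exact sign-flip p = 0.03125). The wild-type signal was dim, and after background subtraction it was larger than its local background on 3 of the 6 arrays. On arrays 2, 4 and 6 it was 0.89, 0.67 and 0.91 times background (background-subtracted signals of 101.0, 63.5 and 91.2). Leaving out array 2, 3, 4 or 6 ended the call, at adjusted p-values of 0.0844, 0.0756, 0.0877 and 0.0509.

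The second Crem clone, BE653846, passed the quality filter on arrays 1, 2 and 4 only and was not tested. Its ratios there were 0.76, 0.90 and 1.21, with a mean of 0.95 ± 0.23 (SD, n = 3). The red wild-type signal on these arrays was 274.5, 38.7 and 63.2 (4.29, 0.34 and 0.56 times background). On arrays 3, 5 and 6, which the filter left out, it was 82.2, 127.6 and 103.3. On arrays 1, 2 and 4, which are also the 3 highest of BE656384, it differed from BE656384 by 0.01 ± 0.16. The other arrays give no comparison. An exact sign-flip test of 3 arrays cannot go below 0.25. Without the quality filter its ratio over 6 arrays was 0.49 (adjusted p = 0.218). Neither clone says which Crem product, activator or repressor, its RNA encodes.

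Atf3 encodes a stress-induced ATF protein. Its clone (BG080433) had ratios of -0.22, -0.24, 0.39, -0.07, -0.14 and -0.23. On 5 of 6 arrays it was below 0, and array 3 stood apart above 0. The fitted ratio was -0.09 ± 0.10 (95% interval -0.30 to 0.13; adjusted p = 0.562). Without array 3 it was -0.18 (adjusted p = 0.204). The interval ends below the fitted ratios of the 4 higher clones, but it leaves out their own errors, and a difference from them was not tested.

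The within-array normalization decided the call of 2 clones. With global loess, Atf3 was lower in the knockout, at -0.63 (adjusted p = 0.00605), as was Fosl2 BG085227, at -0.61 (adjusted p = 0.007). The spots printed within 2 rows and columns of them had medians of -0.53 and -0.74 with global loess, and -0.00 and -0.14 with print-tip loess. The 4 higher clones were higher with global loess too, at 0.76 for Jun, 0.43 and 0.66 for Fosl2 AI837761 and BE656065, and 0.65 for Crem BE656384, while their neighbours had medians of 0.09, -0.15, 0.21 and 0.20. With global loess 30.4% of all clones were called, 16.2% higher and 14.2% lower.

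**Figure D3:**
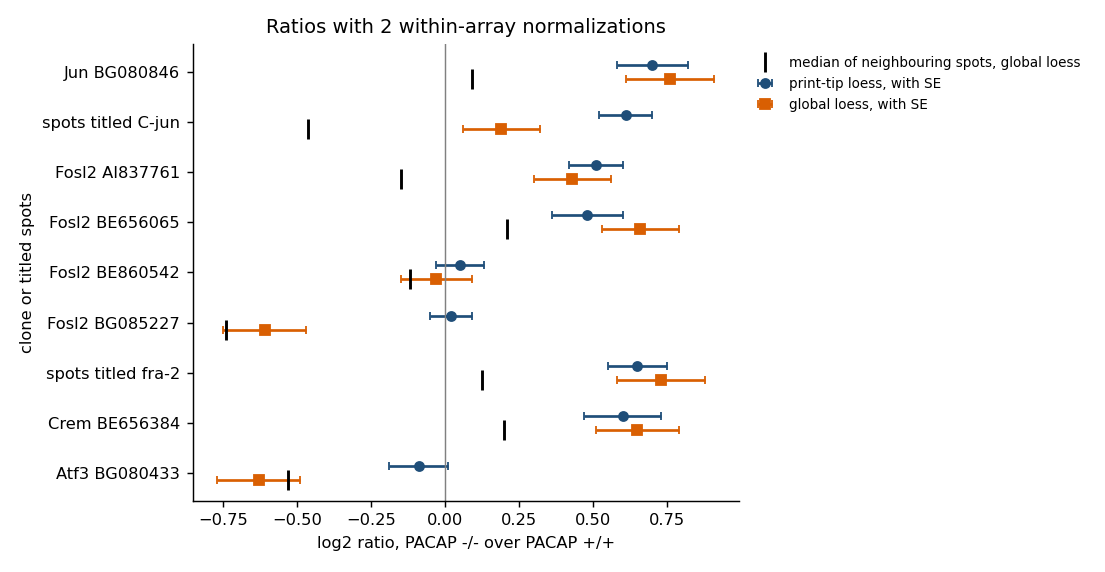
Fitted log2 ratio with SE of the tested clones and titled spots with print-tip loess (circles) and global loess (squares), and the median of the neighbouring spots with global loess (ticks). Atf3 and Fosl2 BG085227 move from near 0 to about -0.6, close to their neighbours, whereas Jun, Fosl2 AI837761, Fosl2 BE656065 and Crem BE656384 stay above 0 and above their neighbours.

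Ratios also varied with the print row inside a block, which print-tip loess does not model. Over all clones, the median ratio of a print row lay between -0.13 (row 5) and 0.12 (row 27). The Jun clone lies in row 5, where 2.80% of clones were higher, and Fosl2 AI837761 in row 16, with a median of 0.02 and 7.08% higher. Fosl2 BE656065 and Crem BE656384 lie in rows 27 and 26 of block 31, rows in which 12% and 11.9% of clones were higher, and the titled spots lie in rows 27 and 28. When every print row of each array was also centred on its median, Jun stood at 0.83 (adjusted p = 0.0292), Fosl2 AI837761 at 0.49 (0.0332), Crem BE656384 at 0.50 (0.05 after rounding, still passing) and Fosl2 BE656065 at 0.38 (0.0869, no longer passing). The part of print position in the remaining differences was not tested.

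**Figure D4:**
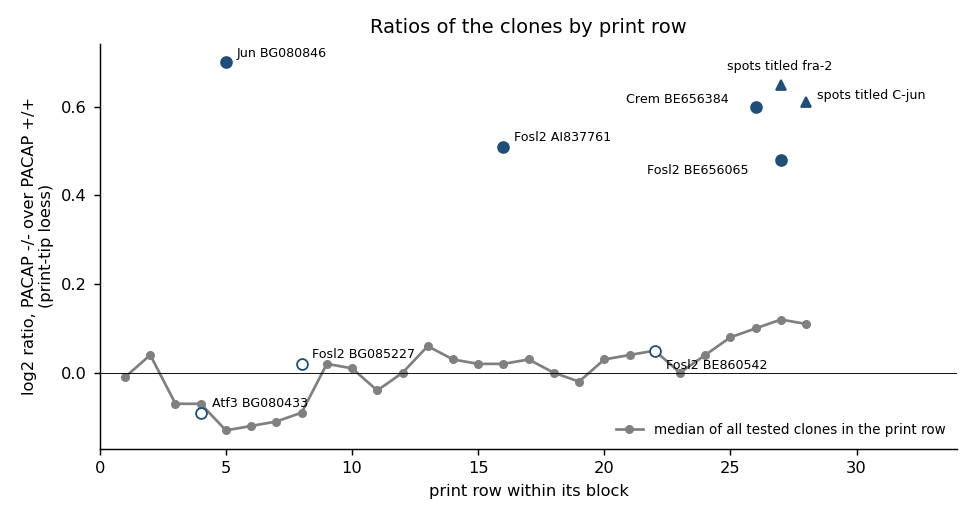
Fitted log2 ratio of the tested clones (circles) and titled spots (triangles) against their print row, with the median of all tested clones in each row (grey). Filled symbols passed the threshold. Jun lies in a row with a median of -0.13, and Crem BE656384, Fosl2 BE656065 and the titled spots in rows with medians of 0.10 to 0.12.

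The median ratio of the 4 higher clones was highest on the arrays with the weakest wild-type signal over all spots, though not every clone peaked there. It was 0.85 and 0.86 on arrays 2 and 4, against 0.76, 0.39, 0.36 and 0.23 on arrays 1, 3, 5 and 6. Jun was nearly as high on array 5 (1.04) as on array 4 (1.08), and Fosl2 BE656065 was highest on array 1 (0.84), the array with the strongest wild-type signal. Without arrays 2 and 4 together the ratios were 0.62 for Jun, 0.36 and 0.35 for Fosl2 AI837761 and BE656065, and 0.40 for Crem BE656384. None then passed (adjusted p-values 0.0747, 0.106, 0.22 and 0.155), and 90 of all clones did. The part of signal strength in these ratios was not tested.

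The other measured members of both families stayed below the threshold. Of all clones tested 11.4% passed, so a count of 0 among so few genes is near that share. Of 9 further AP-1 genes listed, 5 were measured and 0 passed in either direction (limma), with 0 at an unadjusted p under 0.05 and a median of -0.07 against 0.00 for all clones. Fos, the classical partner of Jun, was at -0.18 ± 0.08 (SE, adjusted p = 0.158) and below 0 on 6 of 6 arrays. Junb was at -0.07 and Jund at -0.14, both alternative Jun proteins, Fosl1 (Fra-1) at 0.03 and Batf3 at 0.06. Spots of the titled plate under the names C-fos, JunB and Fos B were at -0.01, 0.38 and 0.24, with adjusted p-values of 0.938, 0.0849 and 0.112. The clone listed as Junb and the spots titled JunB thus lay on opposite sides of 0, a difference that was not tested.

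Of 17 further ATF and CREB genes listed, 6 were measured and 0 passed in either direction (limma), again near the 11.4% of all clones. At an unadjusted p under 0.05 there were 2, and the median was 0.01. These 2 were Atf5, at 0.25 ± 0.10 (adjusted p = 0.104), and Creb3, at -0.24 ± 0.09 (adjusted p = 0.0965). Creb1, the cAMP-responsive activator itself, was at 0.00, Atf2 at 0.02, Atf4 (a translation-controlled stress factor) at 0.06, and Ddit3 at -0.04, against 0.18 for spots titled Chop, its synonym (adjusted p = 0.144). With global loess Atf4 (0.64) and Creb1 (0.51) were higher and Creb3 (-0.61) was lower. Whether Jun, Fosl2 or Crem differs from these relatives was not tested.

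**Figure D5:**
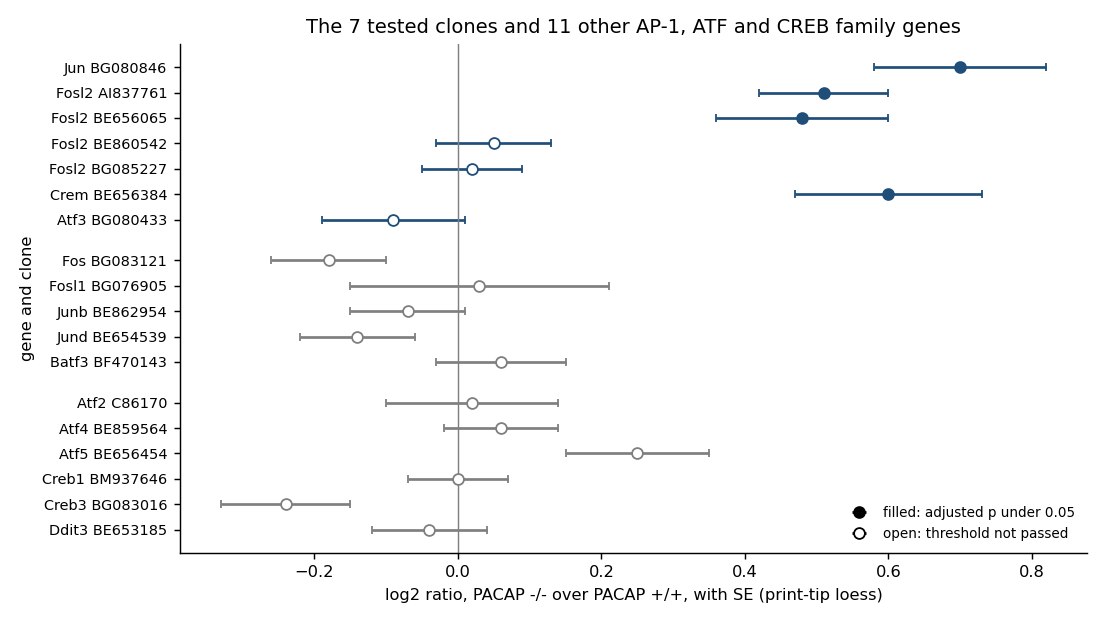
Fitted log2 ratio with SE of the 7 tested clones (blue) and of the 11 measured AP-1, ATF and CREB family relatives (grey, AP-1 genes first), with print-tip loess. Filled points passed the threshold, which none of the relatives did.

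Genes of the pathways around these factors were sorted into lists. The counts of these and the later lists stand beside 6.74% higher and 4.62% lower over all clones tested. With global loess these shares were 16.2% and 14.2%. Of 14 other leucine zipper genes measured, 1 was higher, Nfe2l2 (the oxidative stress factor NRF2) at 0.38, and 1 was lower, the circadian factor Hlf at -0.34. The clone listed as Hlf is titled pantophysin in the scanner files, and whether it reports Hlf RNA was not tested. In the JNK and p38 cascade, which phosphorylates Jun and ATF proteins, 1 of 13 was higher (the JNK scaffold Mapk8ip2, 0.47) and 1 lower (the kinase Map3k7, -0.45). Among 12 genes of protein kinase A and CREB coactivators, the regulatory subunit Prkar1a was higher at 0.58 and the kinase Camk4 lower at -0.31. The medians of these lists were 0.08, 0.08 and 0.09. Each gene is represented by its clone of highest mean signal. Of all tested clones, 2 of 2 of Nfe2l2, 2 of 4 of Mapk8ip2, 1 of 2 of Map3k7 and 1 of 3 of Prkar1a passed. With global loess Hlf (0.09), Map3k7 (0.17) and Camk4 (0.32) had the opposite sign and did not pass, Mapk8ip2 (0.29, adjusted p = 0.0621) did not pass either, and Nfe2l2 stood at 0.73.

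Among 14 measured target genes of CREB and CREM, 3 were higher and 1 lower, with a list median of 0.33. With global loess 8 were higher and 2 lower, with a median of 0.47. The nuclear receptor Nr4a1 was at 1.14 ± 0.22 (adjusted p = 0.0261), the neurotrophin Bdnf at 0.77 ± 0.15 (adjusted p = 0.0276) and Sik1, a kinase that restrains CREB coactivators, at 0.38 ± 0.09 (adjusted p = 0.0336; 0.93 with global loess). Pde4b, a cAMP-degrading phosphodiesterase, was at -0.38 ± 0.08 (adjusted p = 0.0276), and 1 of its 2 tested clones passed. Spots titled Nur-77, another name of Nr4a1, stood at 1.18 ± 0.26 (adjusted p = 0.0309). Of 10 AP-1 target genes, 1 was higher (Ezr, encoding ezrin, 0.47) and 1 lower (Plaur, the urokinase receptor, -0.28, or -0.45 with global loess), with a list median of 0.02. Only 1 of the 3 tested Ezr clones passed.

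Genes that dissection and stress induce early, a class that includes Jun and Atf3, were counted as well. Of 18 measured, 4 were higher and 1 lower, with a median of 0.27. Nr4a1 led, followed by the antiproliferative gene Btg2 at 0.79 ± 0.21 (adjusted p = 0.0435), by 1 of its 2 tested clones. Dnajb1, a heat shock cochaperone, was the lower one at -0.29, by 1 of its 2 tested clones. With global loess its call reversed to higher (0.52, adjusted p = 0.0161), and 6 genes of the list were higher and 0 lower. Egr1, another gene of this class, was at -0.18 and the spots titled Zif268, a synonym, at 0.19, and neither passed. The part of tissue handling in the ratios of Jun, Fosl2 and Crem was not tested.

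Markers of the adrenal cell types were counted beside these genes. Of 7 measured cortex markers, 3 were higher (led by Hsd3b1 at 1.40 and Scarb1 at 0.85) and 0 lower, with a list median of 0.67 and array means from 0.03 to 1.34. With global loess Scarb1 stood at 0.28 and did not pass (adjusted p = 0.294). With print-tip loess, 2 of 2 tested Hsd3b1 clones passed and 1 of 2 of Scarb1. Of 7 medulla markers, 2 were higher (Scg2 at 0.89, Chgb at 0.70) and 1 was lower (Slc18a1 at -0.46), with a median of 0.39. Chga did not pass by its clone of highest mean signal (0.39, limma adjusted p = 0.0769) but was higher by 2 of its 3 tested clones. With global loess 4 medulla markers were higher and 1 lower, and 4 cortex markers were higher and 0 lower. Among the higher ones were then Th (1.10), Chga (1.26), Star (1.53) and Cyp11a1 (1.16). The scanner files title the Scg2 clone patched homolog, and whether it reports Scg2 RNA was not tested. The complement gene C1qb, at 0.88, was the 1 of 5 macrophage markers that passed, by 1 of its 2 tested clones. No endothelial marker of 8 passed (2 at an unadjusted p under 0.05, with Flt1 nearest at 0.46), nor did either adipocyte marker (1 at an unadjusted p under 0.05, Lpl at 0.31). The summed signal of the cortex list ran from 6532 to 49165 in the wild-type channel over the arrays and from 50962 to 86915 in the knockout channel. The corresponding ranges of the medulla list were 2957 to 25284 and 19585 to 44977. In whole glands, fewer cells of a type and less RNA per cell cannot be told apart, and the part of cell makeup in the ratios of Jun, Fosl2 and Crem was not tested.

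The genes whose ratio followed each clone most closely over the 6 arrays were searched among 14680 named clones with 6 values. For Jun they were Chm, Tmem131 and Hexim1, with a Pearson r of 0.993, 0.978 and 0.976. For Fosl2 AI837761 they were Eif4a2, Caprin1 and Hdlbp (0.997, 0.994, 0.993), and for BE656065 Fgfr1, Gpr137 and 1110004F10Rik (0.99, 0.986, 0.985). Those of Crem BE656384 were Emp3, Pop5 and Unc50 (0.992, 0.989, 0.987), of which Emp3 was itself higher in the knockout at 0.47 (adjusted p = 0.0309). For Atf3 they were Tpgs1, 2810029C07Rik and Fbxo6, for BG085227 Ssbp2, Lcorl and Kcnc2, and for BE860542 Pgap2, Dynlrb1 and Micall2, all at an r of at least 0.96. The 2 higher Fosl2 clones shared none of their 3 nearest genes. All values of an array share its labelling and its red signal strength, and 217 genes exceeded an r of 0.95 with AI837761 against 12 with Jun, so these are descriptions of 6 points.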

How the data were processed

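Per the series' design text, the authors used a GenePix 4000A scanner, IPLab for the images and a FileMaker Pro database, subtracted the background, and kept ratios whose quality exceeded 0.3. Software versions and a genome build are not given in the sources used here. The deposited intensity columns of the scanner files were used as they stand: their background was already removed, since empty spots had a median of 1.0. The deposited quality score lies between 0 and 1. The deposited log2 values of the series table were red over green after a second background subtraction, a floor of 1.0 and division by 1 constant per array (0.22 to 0.783). Their sign was turned for use as an alternative, and their rows were tied to spots by these values (35793 of 35873, within 0.002).

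Green over red was normalized by print-tip loess, 1048 empty and control spots were left out, spots of a clone were averaged, and clones with at least 4 arrays entered a limma fit (version 3.58.1, R 4.3.3; lmFit, eBayes) of the mean ratio against 0 (Benjamini-Hochberg over 28708 clones, threshold 0.05). The procedure was also run on simulated arrays with known changes. Their noise was drawn independently for each spot, without print-row or dye effects, so that run does not address those effects. Exact tests flipped signs over arrays (Python 3.11.15). The clone of highest mean signal stood for a listed gene. The text names all clones of the 4 genes, every measured AP-1, ATF and CREB relative, the 2 largest passing genes of each other list (or the one of smallest p), and the 3 nearest genes by Pearson r. Egr1, Dnajb1, Pde4b, Sik1 and Slc18a1 and titled spots other than C-jun and fra-2 were added after their values were seen. The members, the 13 lists and the normalization were chosen with earlier results of these data known. Alternatives were global loess (also with blocks centred), no loess, other quality filters, a second background subtraction, the deposited log2 values, all arrays required, another variance model and arrays left out. Centred print rows and titled spots were added after seeing the data. Print-tip loess was preferred because print blocks carried much of the variance with global loess. The precision is limited by the 6 arrays.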

Additional observations from a re-analysis of the deposited data

Results flagged for a closer look

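The Atf3 clone stood at 0.39 on array 3, away from -0.24 to -0.07 on the other arrays, a gap larger than the 95% limit of Dixon's test for 6 values. Chance alone gives such a gap in about 1 in 20 groups. The spots titled C-jun (0.61) and fra-2 (0.65) have no listed gene and lie outside the 8 clones, and both were higher in the knockout on 6 of 6 arrays.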

How the results depend on the processing

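The direction of Jun, Fosl2 AI837761, Fosl2 BE656065 and Crem BE656384 was the same under every alternative run, and their calls were not. They were lost without the quality filter (Jun 0.71, AI837761 0.51, BE656065 0.47, BE656384 0.59), where 0 clones of the whole array passed in limma against 10106 at an unadjusted p under 0.05. A second background subtraction (0.93, 1.01, 0.49, 0.39) likewise left 0 clones, against 6992. The exact sign-flip test alone, at a ratio of 0.48, did not pass for BE656065, nor did centred print rows (0.38). With the authors' deposited log2 values, Jun (0.19), AI837761 (0.75) and BE656065 (1.35) did not pass, BE860542 did (2.05) and BG085227 turned to -2.13. Without arrays 2 and 4 together the ratios were 0.62, 0.36, 0.35 and 0.40, and with global loess in addition AI837761 (0.29) and BE656384 (0.49) lost their calls. The causes were not tested.

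BG085227 was below 0 with global loess (-0.61, or -0.50 without arrays 2 and 4) and with median centring (-1.02), and BE860542 was at -0.03 with global loess and -0.06 with its blocks centred. Atf3 passed as lower with global loess (-0.63) and median centring (-0.64), and stood at 0.24 after a second background subtraction. The untested Crem clone moved from 0.95 to 0.69 (global loess), 0.49 (no quality filter), 0.57 (second subtraction) and 3.26 (authors' deposited values). The gap between AI837761 and BG085227 moved from 0.49 to 1.04 with global loess (0.79 without arrays 2 and 4), 1.52 with median centring, 0.99 with a second subtraction and 2.88 with the authors' deposited values. Of the 11 measured family relatives, 3 passed with global loess (1 without arrays 2 and 4), 3 with median centring and 6 with the authors' deposited values. Over all clones, 8732 passed with global loess, 9428 with median centring, 9917 with the authors' deposited values and 90 without arrays 2 and 4.

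Leaving out 1 array at a time, with print-tip and with global loess, the ratio ran from 0.63 to 0.88 for Jun, 0.36 to 0.54 for AI837761, 0.41 to 0.73 for BE656065, -0.73 to 0.05 for BG085227, -0.08 to 0.10 for BE860542, -0.71 to -0.05 for Atf3, 0.52 to 0.76 for Crem BE656384 and 0.67 to 1.05 for BE653846. The Fosl2 gap ran from 0.38 to 1.22, the passing relatives from 0 to 3, and the clones called from 1 to 8656. With print-tip loess 1 clone passed without array 2, 3 or 6 and 19 without array 4, so that the lost calls of Jun, AI837761 and BE656384 came with lost calls throughout the array. With global loess, Jun, BE656065 and BE656384 passed whichever array was left out, and AI837761 did not without array 2 or 4. Each array holds 1 wild-type and 1 knockout RNA and yields a single ratio, so the tests of these ratios already use the pairing. No separate paired analysis was run.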
